A study of Homo sapiens with 9 samples.

Results

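The genes described here are 38 genes of amino acid supply and of the stress programme run by the transcription factor ATF4, chosen by gene name from the 58676 genes counted in the study. They fall into 12 stress regulators, 6 amino acid transporters, 10 enzymes of amino acid and one-carbon metabolism and 10 genes of transfer RNA (tRNA) charging and export. Of the 38, 37 passed the filter on low counts, which kept 16239 genes in all. ALDH1L2, a mitochondrial folate enzyme, was the member that did not pass, with 0 to 0.405 CPM (counts scaled to library size) across libraries. The cells were HaCaT, a human keratinocyte line that grows without limit, and their RNA was sequenced after 14 h in 10 µM PRL-295, in 250 nM CDDO-Me or in 1% DMSO, the vehicle control, with 3 libraries in each group. CDDO-Me (bardoxolone methyl) is an electrophilic activator of NRF2, the transcription factor of the antioxidant response. PRL-295 has a code name only, with no structure in the labels, and the study's title speaks of non-electrophilic NRF2 activators. The labels give DMSO for the control cultures only, and whether the compound cultures held DMSO is not given. Nor do they state that libraries were made from separately grown cultures, so p-values measure the spread between these samples, which may be technical.

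ATF4 is made when cells lack amino acids or fold proteins poorly. Kinases that phosphorylate the translation factor eIF2 then slow protein synthesis in general while the ATF4 message is translated better. ATF4 pairs with C/EBP proteins on composite DNA elements and raises the transcription of amino acid importers, of enzymes that make serine, proline and asparagine, and of many tRNA synthetases, together with feedback and cell death regulators such as TRIB3 and DDIT3. Because ATF4 is controlled largely in translation, its own mRNA is an incomplete readout of its activity. The cystine importer SLC7A11 and several metabolic enzymes are known targets of both ATF4 and NRF2.

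The sequences shown first lie upstream of a listed start site of a member and hold the letters of the element bound by ATF4 and C/EBP proteins. RefSeq promoter windows (GRCh38.p14) were matched for 33 of the 38 members, in 51 windows. Some members had several listed starts, each with its own window. The 250 bases before each start were searched on both strands for TGATGNAA, the C/EBP-ATF composite element, and for TGACNNNGC, the core of the antioxidant response element that NRF2 binds. TGATGNAA was found in 7 of the 33 members, or 21.2%, against 3.89% of 27305 genes. The members were chosen as genes of the ATF4 programme, so an excess of its element is in part built into the choice. A gene counted if any of its windows matched. The 27305 genes had 35116 windows, and the shares were not matched for windows per gene. The matches in CEBPG, GARS and SLC1A5 lay before a start further along the gene, downstream of its first listed start. The 7 stretches are given below 5′ to 3′ on the gene's strand, with the matching letters in capitals (matches on the other strand appear as their reverse complement).
ASNS, chr7:97872459-97872486, minus strand: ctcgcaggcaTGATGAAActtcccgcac
CHAC1, chr15:40953252-40953279, plus strand: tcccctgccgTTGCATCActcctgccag
ATF3, chr1:212565206-212565233, plus strand: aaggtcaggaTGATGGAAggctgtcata
CEBPG, chr19:33374061-33374088, plus strand: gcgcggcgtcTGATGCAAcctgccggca
SLC1A5, chr19:46784894-46784921, minus strand: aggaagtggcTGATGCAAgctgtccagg
GARS, chr7:30594835-30594862, plus strand: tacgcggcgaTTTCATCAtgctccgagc
AARS, chr16:70289676-70289703, minus strand: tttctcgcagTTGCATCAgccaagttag

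None of these 7 genes was among the members that passed the test in any of the 3 comparisons below. Over all tested genes, 9.22% passed for CDDO-Me against DMSO, 0.684% for PRL-295 against DMSO and 1.59% for PRL-295 against CDDO-Me. Beside those shares, no call among 7 genes says little about them. The antioxidant core was found in 9 of the 33 members, or 27.3%, against 13.2% of all genes, again not matched for windows per gene. Its stretches are shown for the 3 members that hold it and passed a test, with the matching letters in capitals. The SLC3A2 stretch lay before a start further along the gene, downstream of another listed start.
SLC3A2, chr11:62881652-62881680, plus strand: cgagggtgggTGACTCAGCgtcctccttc
XPOT, chr12:64404260-64404288, plus strand: caagccccggTGACCACGCcttccggcga
WARS, chr14:100376350-100376378, minus strand: gaacagccaaTGACGGCGCcgtcgggccg

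SLC3A2 and WARS fell with CDDO-Me and XPOT rose, although the calls of SLC3A2 and XPOT depended on the processing, as given below. Whether the motif had a part in these changes was not tested. In the 2 motif searches no match of one overlapped a match of the other. XPOT had a log2 change of 0.71 with each compound against DMSO and passed the test with CDDO-Me only. STC2, which passed the test as higher with both compounds, held neither motif in the 250 bases before its start. These are shown here because no other member passed the test for both.
STC2, chr5:173328415-173328664, minus strand: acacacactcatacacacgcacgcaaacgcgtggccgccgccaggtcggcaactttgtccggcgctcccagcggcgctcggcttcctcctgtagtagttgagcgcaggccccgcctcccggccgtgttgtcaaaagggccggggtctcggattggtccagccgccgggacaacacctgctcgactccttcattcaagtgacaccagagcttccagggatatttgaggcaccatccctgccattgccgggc

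A match of letters is a description of the window and does not show that a factor binds there.

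Library totals ran from 23383800 to 32942156 counted reads, so that 3 counts corresponded to 0.0921 to 0.127 CPM; such floors cover counting error only. CDDO-Me library 1 had counts for 14543 genes, the fewest, and CDDO-Me library 2 for 23271, the most. Libraries also differed in how counts moved with the GC content of a gene, with correlations across genes of -0.495 to 0.309 in PRL-295 libraries, -0.65 to 0.0249 in CDDO-Me libraries and 0.349 to 0.399 in DMSO libraries. The members' median GC content was 52.9%, against 49.8% over all tested genes. Where a correction for GC content and gene length, or leaving out 1 library, ended the call of a gene named below, this stands beside it. As a check of the compounds, HMOX1, NQO1, GCLM, TXNRD1 and SRXN1, the 5 antioxidant genes used as readouts, rose with CDDO-Me, and all but SRXN1 passed the test with PRL-295. SRXN1 shares 85.0% of its exon bases with another gene on the same strand and its level is uncertain. With 1 library left out, the PRL-295 call of GCLM was lost for PRL-295 library 1 or 3 or any DMSO library (adjusted p 0.0722 to 0.11), as it was after the correction (log2 0.68, adjusted p = 0.11), the CDDO-Me call of NQO1 for DMSO library 2 (0.0503) and that of SRXN1 for CDDO-Me library 3 or DMSO library 2 or 3 (0.0549 to 0.0974). Per library, the 10 keratinocyte markers summed to 13780 to 14710 CPM with PRL-295, 20920 to 23860 with CDDO-Me and 16320 to 17630 with DMSO. None was at 0. For CDDO-Me against DMSO 8 of the 10 passed the test, 7 higher and 1 lower, beside 9.22% of all tested genes. With PRL-295, 1 fell against DMSO and 7 differed from CDDO-Me, beside 0.684% and 1.59% of all tested genes. Fibroblast markers summed to at most 13.05 CPM, melanocyte markers to at most 7.983, immune markers to at most 1.98 and endothelial markers to at most 2.308. DCN, LUM, COL3A1, TYR, CD1A and PECAM1 were at 0. Over the 9 libraries COL1A1 had 2454 reads, MITF 916, PMEL 568, VWF 224 and CD14 216. The 1 tested immune marker, CD14, had a log2 change of -2.8 with CDDO-Me, on its 216 reads over the 9 libraries. DESeq2 and limma on log2(FPKM + 1) called it and edgeR did not. The samples were bulk RNA of 1 cell line by the labels, and which cells carried the CD14 reads cannot be told.

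The members ranged from the very abundant to the barely detected. In deposited FPKM, a level per gene length, the most abundant member was SLC7A5, at 656 in PRL-295 cells, 383 in CDDO-Me cells and 734 in DMSO cells, and the next was its partner SLC3A2, at 223 in PRL-295 cells, 141 in CDDO-Me cells and 200 in DMSO cells. PSAT1, an enzyme of serine synthesis, stood at 153 FPKM in PRL-295 cells, 140 in CDDO-Me cells and 131 in DMSO cells. ATF4 itself stood at 136 FPKM with PRL-295, 99.1 with CDDO-Me and 117 with DMSO. At the other end were ASNS, NUPR1 and ALDH1L2, all below 0.2 FPKM in every group. DDIT3, ATF3 and CHAC1, a cell death regulator, a stress transcription factor and a glutathione-degrading enzyme that are strongly induced when ATF4 is active, lay between 0.97 and 4.66 FPKM in all 3 groups.

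**Figure D1:**
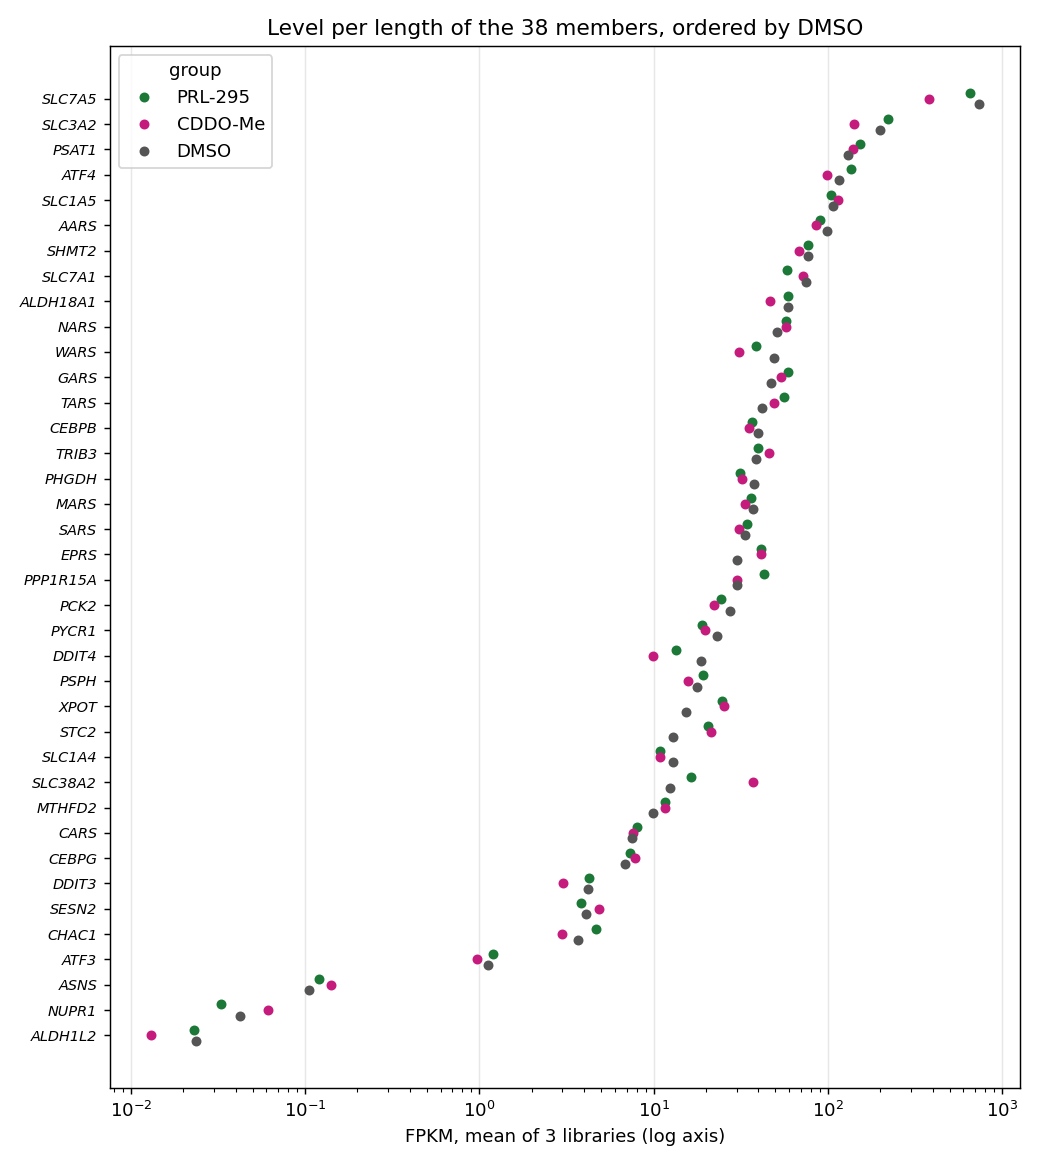
Mean FPKM over 3 libraries (log axis) of the 38 members, ordered by their level in DMSO cells, with PRL-295, CDDO-Me and DMSO cells as separate points. SLC7A5 and SLC3A2 stand at the top, and ASNS, NUPR1 and ALDH1L2 lie below 0.2 FPKM in all 3 groups.

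CDDO-Me moved a minority of these genes, and in both directions. Against DMSO, 3 members rose (STC2, SLC38A2 and XPOT) and 4 fell (SLC7A5, SLC3A2, WARS and DDIT4), so 7 of 37 tested members, or 18.9%, passed an adjusted p of 0.05 in edgeR's quasi-likelihood test, against 9.22% of all tested genes. The share of all genes was 4.65% higher and 4.57% lower. The members' median log2 fold change was -0.113, against 0.00782 over all tested genes. The 3 CDDO-Me libraries all lay above the 3 DMSO libraries for 5 members and all below them for 8, where 15.5% and 16.3% of all tested genes did so (31.8% in either direction). With the correction for GC content and gene length, 4 members were called in place of 7, beside 4.3% of all tested genes in place of 9.22%. Of the 37 log2 fold changes, 25 were positive in place of 17.

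With PRL-295 the single member that rose was STC2, so 1 of 37 members, or 2.7%, was called against DMSO, beside 0.684% of all tested genes in either direction and 0.462% higher. The members' median log2 fold change was 0.0749, against -0.0116 over all tested genes. The PRL-295 libraries all lay above the DMSO libraries for 9 members and all below for 6, where 13.5% and 13.7% of all tested genes did so (27.2% in either direction). The count was 3 by DESeq2 and 1 by limma on log2(FPKM + 1), where 4.44% and 0.462% of all genes were called. It was 0 when any 1 of PRL-295 libraries 1, 2 or 3 or DMSO libraries 1 or 2 was left out. In those fits 0.193% to 0.344% of all genes were called. It was 2 without CDDO-Me library 2 and 3 without CDDO-Me library 1, beside 1.61% and 3.47% of all genes.

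Set directly against each other, the compounds differed in 2 members, SLC7A5 and SLC3A2, both higher with PRL-295 than with CDDO-Me. That is 5.41% of the 37 members, beside 1.59% of all tested genes in either direction and 0.905% higher. Doses differed, 10 µM for PRL-295 and 250 nM for CDDO-Me, so the comparison is of these treatments and not of the compounds at a matched dose. The members' median log2 difference was 0.11, against -0.00652 over all tested genes. The PRL-295 libraries all lay above the CDDO-Me libraries for 10 members and all below for 2, where 14.4% and 10.2% of all tested genes did so (24.6% in either direction). The comparisons share groups, so their values are set side by side and no overlap between them is given.

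**Figure D2:**
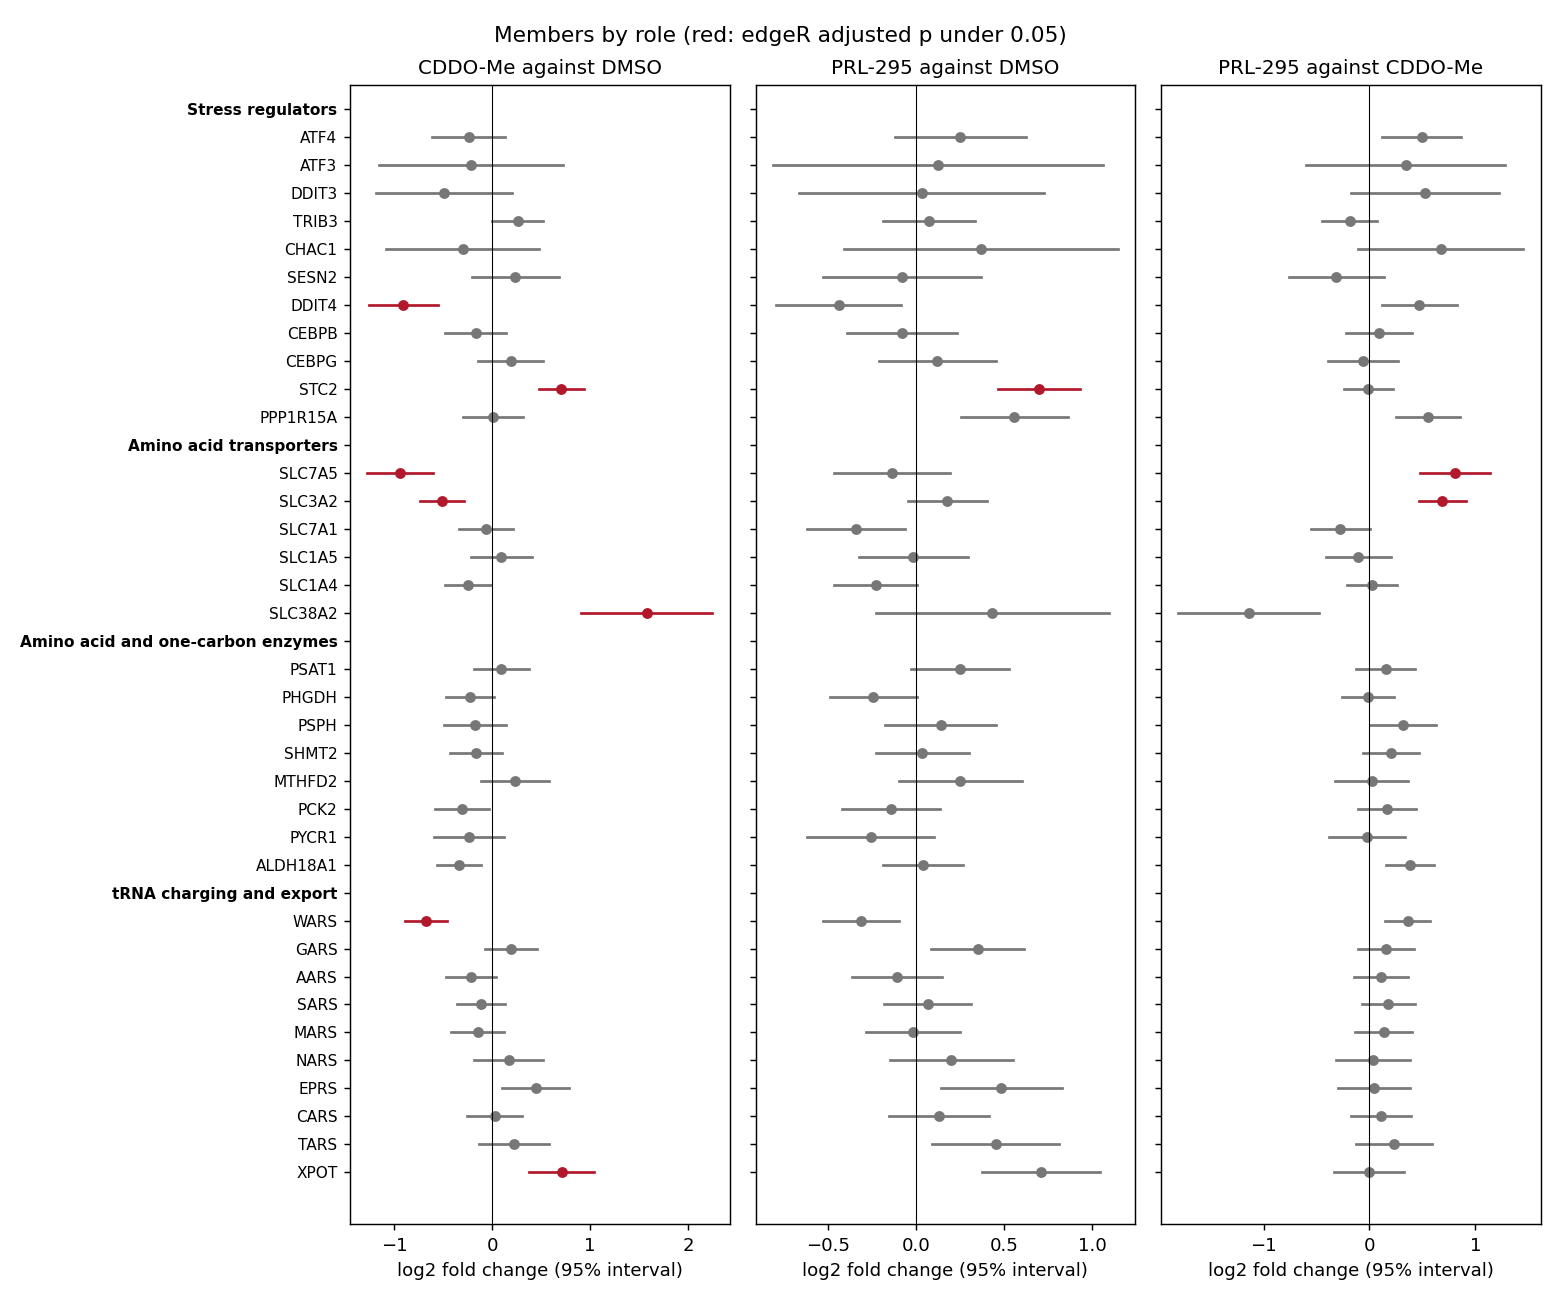
Log2 fold changes with 95% intervals (x axis) of the tested members by role, for CDDO-Me against DMSO, PRL-295 against DMSO and PRL-295 against CDDO-Me; red marks an edgeR adjusted p under 0.05, and NUPR1 and ASNS, with few counts, are left out. Red points lie on both sides of 0 for CDDO-Me against DMSO (3 higher, 4 lower), at STC2 for PRL-295 against DMSO, and at SLC7A5 and SLC3A2 for PRL-295 against CDDO-Me.

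Among the stress regulators, STC2 rose with both compounds and DDIT4 fell with CDDO-Me, while the other 10 did not pass the test in any comparison. The share called was 16.7% with CDDO-Me and 8.33% with PRL-295, beside 9.22% and 0.684% of all tested genes. Between PRL-295 and CDDO-Me edgeR and limma called 0 of the 12 and DESeq2 called 1, with 3 at an unadjusted p under 0.05. Over all 16239 tested genes, edgeR gave an unadjusted p under 0.05 for 4215 in CDDO-Me against DMSO. It did so for 2093 in PRL-295 against DMSO and 2796 in PRL-295 against CDDO-Me. The counts at an unadjusted p given here and below are to be read beside these. In the same order, DESeq2 called 17.1%, 4.44% and 6.85% of all genes, and limma on log2(FPKM + 1) 8.94%, 0.462% and 1.65%. Counts by those tools are to be read beside these shares. STC2 encodes stanniocalcin 2, a secreted glycoprotein that is raised by ATF4 in stressed cells. It had 128, 132 and 125 CPM in PRL-295 libraries 1 to 3, 118, 131 and 138 CPM in CDDO-Me libraries and 75.8, 76.4 and 85.0 CPM in DMSO libraries. The 6 compound libraries all lay above the 3 DMSO libraries, and the 2 compounds overlapped. The fold was 1.62 with PRL-295 (log2 0.70 ± 0.106 SE, adjusted p = 0.0159) and 1.63 with CDDO-Me (log2 0.71 ± 0.106 SE, adjusted p = 0.00313), and the log2 difference between the compounds was -0.01, with a 95% interval of -0.24 to 0.22. The CDDO-Me call held in all 11 other settings and with each of the 9 libraries left out, whereas the PRL-295 call was lost without PRL-295 library 1, 2 or 3 or DMSO library 1 or 2, with adjusted p from 0.0512 to 0.122.

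DDIT4 (REDD1), which restrains the growth kinase complex mTORC1 under stress, had 27.2, 28.4 and 29.1 CPM in PRL-295 libraries, 18.9, 20.3 and 21.9 CPM in CDDO-Me libraries and 45.5, 33.3 and 35.8 CPM in DMSO libraries. The 3 groups did not overlap, with CDDO-Me lowest and DMSO highest. CDDO-Me cells had 1.87-fold less than DMSO cells (log2 -0.91 ± 0.162 SE, adjusted p = 0.00801). For PRL-295 the log2 change was -0.44 (adjusted p = 0.276), and the direct difference between PRL-295 and CDDO-Me was 0.47 (adjusted p = 0.169). After the correction for GC content and gene length the CDDO-Me change was -0.49 (adjusted p = 0.135). An antisense gene covers 41.2% of its exon bases and was listed with no counts.

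The regulators at the centre of the programme did not pass the test for either compound. ATF4 mRNA had 289, 409 and 344 CPM in PRL-295 libraries, 199, 264 and 277 CPM in CDDO-Me libraries and 249, 285 and 341 CPM in DMSO libraries. PRL-295 libraries all lay above CDDO-Me libraries, and DMSO overlapped both. The log2 difference between PRL-295 and CDDO-Me was 0.49 (95% interval 0.12 to 0.87, adjusted p = 0.171), beside 0.25 for PRL-295 against DMSO (adjusted p = 0.591) and -0.24 for CDDO-Me against DMSO (adjusted p = 0.408). With the correction for GC content and gene length the CDDO-Me value was 0.07 (adjusted p = 0.844).

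DDIT3 (CHOP), which promotes cell death in prolonged stress, had 5.66, 4.99 and 5.77 CPM in PRL-295 libraries, 4.41, 2.51 and 4.48 CPM in CDDO-Me libraries and 3.85, 5.96 and 6.21 CPM in DMSO libraries. DMSO library 1 lay among the CDDO-Me libraries, while the PRL-295 libraries all lay above the CDDO-Me libraries. The log2 difference was 0.53 for PRL-295 against CDDO-Me (adjusted p = 0.431), 0.03 for PRL-295 against DMSO (adjusted p = 0.986) and -0.49 for CDDO-Me against DMSO (95% interval -1.19 to 0.21, adjusted p = 0.36). MARS on the opposite strand covers part of DDIT3 (39.6% of exon bases shared on either strand with annotated genes), and the strand setting of the counting is not given, so its level is uncertain. CHAC1 had 8.57, 11.1 and 9.54 CPM in PRL-295 libraries, 3.22, 6.45 and 8.67 CPM in CDDO-Me libraries and 10.0, 5.40 and 7.21 CPM in DMSO libraries. The groups overlapped, although 2 of the PRL-295 libraries lay above every CDDO-Me library.

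TRIB3, a pseudokinase that feeds back on ATF4, had 127, 156 and 133 CPM in PRL-295 libraries, 174, 145 and 154 CPM in CDDO-Me libraries and 140, 130 and 125 CPM in DMSO libraries. The CDDO-Me libraries all lay above DMSO, with a log2 change of 0.26 (95% interval -0.00 to 0.52, adjusted p = 0.194). Corrected for GC content and gene length, the change was 0.64 and passed the test (adjusted p = 0.0208). The 5 tested genes whose log2 CPM followed TRIB3 most closely over the 9 libraries were SLC15A4 (Pearson's r = 0.968), CA10 (0.956), SAP30L (0.954), CEP85 (0.948) and PLEKHO2 (0.938), a description over libraries that share groups and depth; none is in the lists used here and none was called with CDDO-Me.

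PPP1R15A (GADD34), which returns eIF2 to its unphosphorylated form, had 119, 160 and 129 CPM in PRL-295 libraries, 85.6, 91.5 and 101 CPM in CDDO-Me libraries and 83.6, 89.9 and 103 CPM in DMSO libraries. PRL-295 libraries lay above all others. The log2 change was 0.56 for PRL-295 against DMSO (adjusted p = 0.116) and 0.55 for PRL-295 against CDDO-Me (adjusted p = 0.0795). The first passed the test with the correction for GC content and gene length (0.69, adjusted p = 0.0246) and without CDDO-Me library 1 (adjusted p = 0.044). Both passed by DESeq2 (adjusted p = 0.0307 and 0.0245) and with no filter on low counts (0.00954 and 0.0104). Neither passed in the other settings tried, among them the correction with the replicate block. NUPR1, a small stress-induced chromatin protein, was at or near the floor, with 0.082, 0.267 and 0.222 CPM in PRL-295 libraries, 0, 0.611 and 0.423 CPM in CDDO-Me libraries and 0, 0 and 0.718 CPM in DMSO libraries. SESN2, a leucine sensor, CEBPB and CEBPG, dimer partners of ATF4, and ATF3 had log2 changes of -0.22 to 0.23 with CDDO-Me and -0.08 to 0.13 with PRL-295, none of them called.

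**Figure D3:**
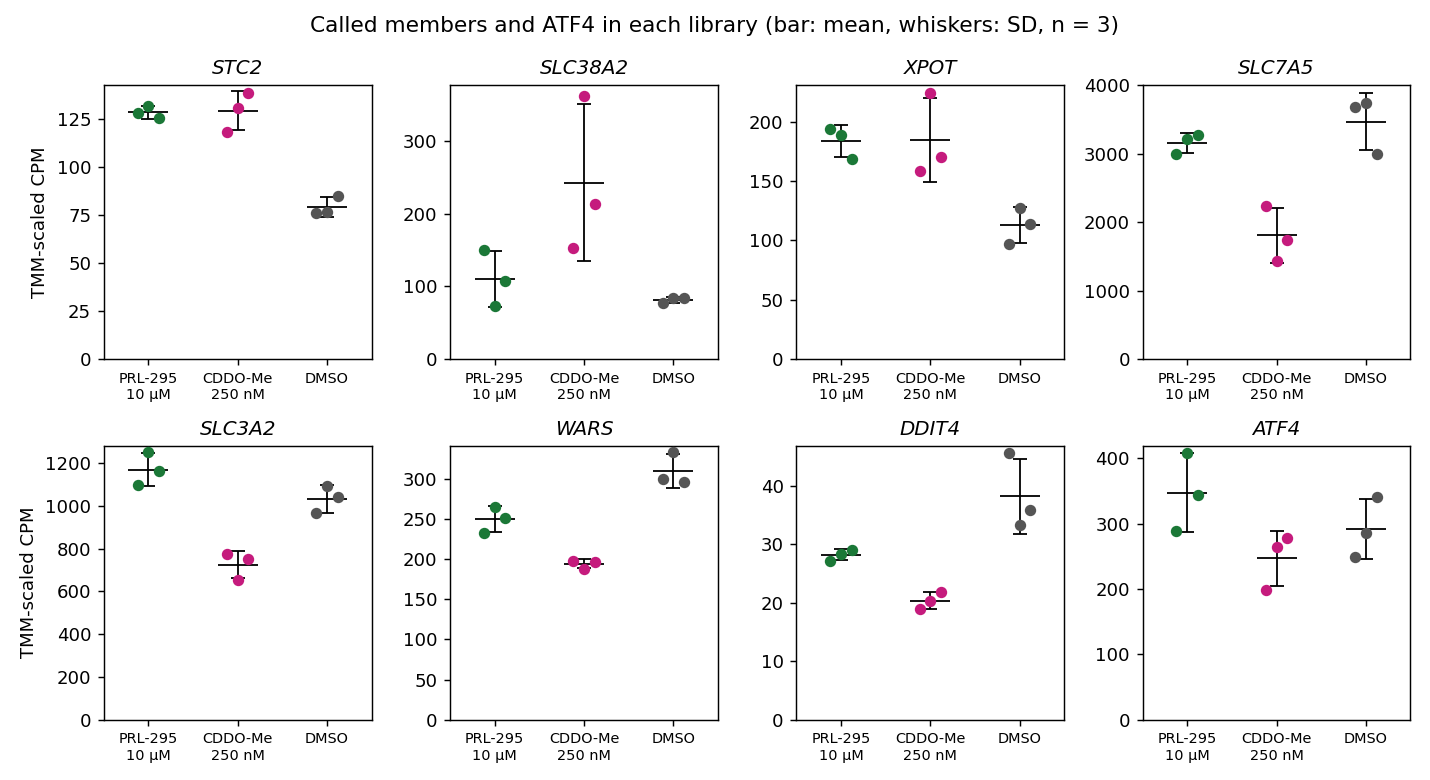
TMM-scaled CPM (y axis, from 0) in each of the 3 libraries of PRL-295, CDDO-Me and DMSO cells for the 7 called members and ATF4; bars are means and whiskers SD (n = 3). STC2 and XPOT are higher in both compound groups than in DMSO, SLC38A2 is high and scattered with CDDO-Me, and SLC7A5, SLC3A2, WARS and DDIT4 are lowest with CDDO-Me.

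The transporters held the member with the largest rise and the one with the largest fall with CDDO-Me against DMSO. With CDDO-Me, 3 of the 6 passed the test, beside 9.22% of all tested genes: SLC38A2 rose, and SLC7A5 and SLC3A2 fell. With PRL-295 0 of the 6 passed against DMSO by edgeR, DESeq2 or limma, and 1 had an unadjusted p under 0.05.

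SLC7A5 (LAT1) and SLC3A2 (the heavy chain 4F2hc, CD98) together form the main exchanger that brings leucine and other large neutral amino acids into the cell. SLC7A5 had 2995, 3206 and 3264 CPM in PRL-295 libraries, 2240, 1433 and 1740 CPM in CDDO-Me libraries and 3675, 3732 and 2992 CPM in DMSO libraries. Every CDDO-Me library lay below every other library, and PRL-295 and DMSO overlapped. CDDO-Me cells had 1.92-fold less than DMSO cells (log2 -0.94 ± 0.151 SE, adjusted p = 0.00451), a call that held with each of the 9 libraries left out. With PRL-295 the log2 change against DMSO was -0.14 (95% interval -0.47 to 0.19, adjusted p = 0.8). PRL-295 cells had 1.75-fold more than CDDO-Me cells (log2 0.81 ± 0.151 SE, adjusted p = 0.025).

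SLC3A2 had 1096, 1251 and 1161 CPM in PRL-295 libraries, 775, 653 and 750 CPM in CDDO-Me libraries and 964, 1092 and 1042 CPM in DMSO libraries. The CDDO-Me libraries were again the lowest 3, and the PRL-295 libraries the highest 3. The log2 change was -0.51 ± 0.102 (SE) for CDDO-Me against DMSO (adjusted p = 0.013), 0.18 for PRL-295 against DMSO (adjusted p = 0.508) and 0.69 ± 0.102 (SE) for PRL-295 against CDDO-Me (adjusted p = 0.00777).

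The calls for this pair depended on the processing. With the correction for GC content and gene length, the CDDO-Me change was -0.62 for SLC7A5 (adjusted p = 0.0513) and -0.26 for SLC3A2 (adjusted p = 0.318), and the direct difference was 0.68 for SLC7A5 (adjusted p = 0.0642) and 0.57 for SLC3A2 (adjusted p = 0.0468). The SLC3A2 call for CDDO-Me was lost without CDDO-Me library 2 (adjusted p = 0.0608), DMSO library 2 (0.0742) or DMSO library 3 (0.0507). In the direct comparison, SLC3A2 was not called without PRL-295 library 3 (adjusted p = 0.0532), and SLC7A5 was not called without PRL-295 library 1, 2 or 3, CDDO-Me library 3 or DMSO library 2 (adjusted p 0.0519 to 0.101). A fit of the 6 libraries of these 2 groups alone called neither, with adjusted p = 0.111 for SLC7A5 and 0.074 for SLC3A2. Limma on log2(FPKM + 1) called SLC3A2 in the direct comparison, where SLC7A5 had an adjusted p = 0.0506.

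SLC3A2 also serves as the heavy chain of other exchangers, and the light chains moved differently. SLC7A11 (xCT), which imports cystine in exchange for glutamate, stood at 6.91 FPKM in PRL-295 cells, 16.8 FPKM in CDDO-Me cells and 1.70 FPKM in DMSO cells. Its log2 change was 2.04 with PRL-295 (adjusted p = 0.0311) and 3.30 with CDDO-Me (adjusted p = 0.000589); the PRL-295 call was lost without PRL-295 library 1 or 3, CDDO-Me library 3 or any DMSO library (adjusted p 0.0583 to 0.189) and by limma on log2(FPKM + 1) (0.131). SLC7A8 (LAT2), a second importer of neutral amino acids, stood at 8.14, 14.5 and 7.10 FPKM in PRL-295, CDDO-Me and DMSO cells, with a log2 change of 1.03 for CDDO-Me against DMSO (adjusted p = 0.00203). SLC7A6 did not pass the test and lay between 4.92 and 5.46 FPKM. Annotated genes, mainly SLC7A6OS on the opposite strand, share 55.6% of its exon bases, so its level is uncertain. SLC7A5 remained the most abundant light chain measured in every group: its mean was 383 FPKM in CDDO-Me cells, where SLC7A11 was at 16.8 FPKM.

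SLC38A2 (SNAT2), a sodium-coupled importer of glutamine and alanine whose synthesis is raised in amino acid starvation, had 149, 72.7 and 108 CPM in PRL-295 libraries, 153, 362 and 213 CPM in CDDO-Me libraries and 76.9, 83.4 and 83.7 CPM in DMSO libraries. The CDDO-Me libraries all lay above the others, CDDO-Me library 2 by far the highest, and PRL-295 library 2 lay below DMSO. The fold was 2.98 for CDDO-Me against DMSO (log2 1.58 ± 0.306 SE, adjusted p = 0.0115). The log2 change was 0.43 for PRL-295 against DMSO (adjusted p = 0.605) and -1.14 for PRL-295 against CDDO-Me (adjusted p = 0.0906). SLC38A2 has a low GC content, 38.8%, and CDDO-Me library 2 had the strongest negative relation of counts to GC content; corrected for GC content and length, the CDDO-Me change was 0.91 (adjusted p = 0.00119) and the direct difference -0.75 (adjusted p = 0.011). The CDDO-Me call was lost without DMSO library 1 (adjusted p = 0.0609) or DMSO library 2 (0.0582), and without CDDO-Me library 2 the change was 1.15. The direct difference passed the test without CDDO-Me library 1 (-1.39, adjusted p = 0.0258).

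The other 3 transporters did not pass the test in any comparison. SLC7A1 (CAT1), an importer of arginine and lysine, had 446 to 462 CPM with PRL-295, 469 to 667 CPM with CDDO-Me and 538 to 601 CPM with DMSO, so that PRL-295 lay below both other groups. SLC1A5 (ASCT2), a glutamine exchanger, had 341 to 372 CPM with PRL-295, 314 to 475 CPM with CDDO-Me and 343 to 365 CPM with DMSO. SLC1A4 (ASCT1), a serine and alanine exchanger, lay below DMSO in all 6 compound libraries, with log2 changes of -0.23 for PRL-295 (adjusted p = 0.404) and -0.25 for CDDO-Me (adjusted p = 0.173).

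**Figure D4:**
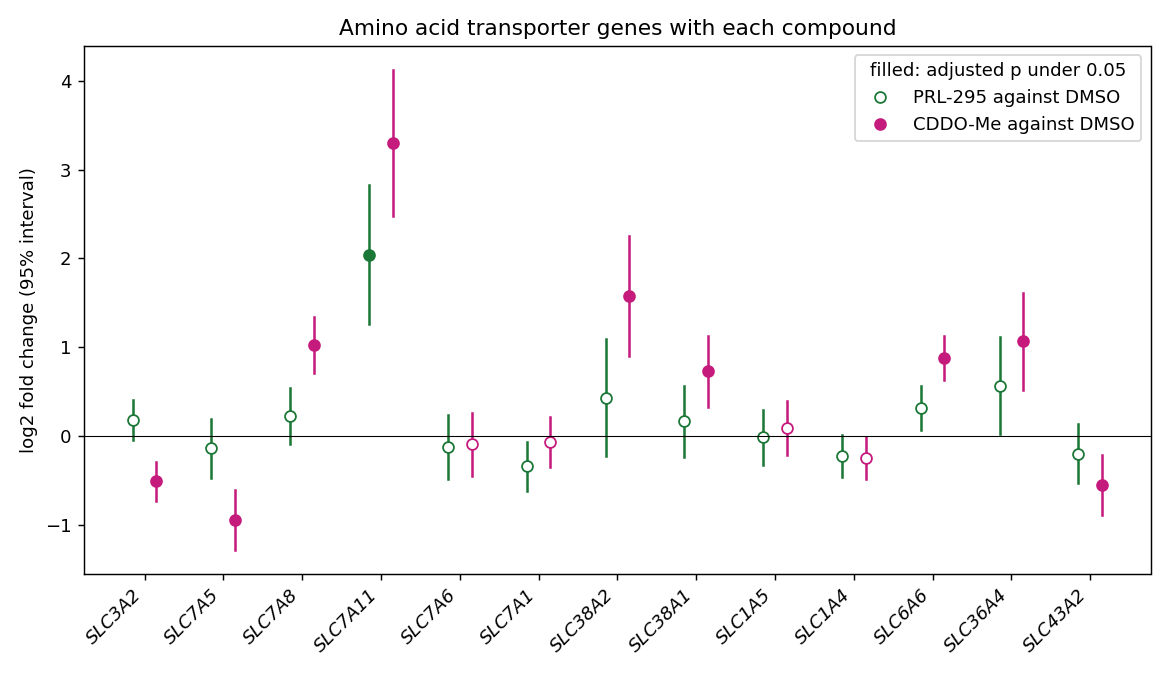
Log2 fold change against DMSO with 95% intervals (y axis) of member and other amino acid transporters (x axis), PRL-295 left of CDDO-Me for each gene; filled points passed an edgeR adjusted p of 0.05. With CDDO-Me, SLC3A2 and SLC7A5 are below 0 and SLC7A8, SLC7A11 and SLC38A2 above it; with PRL-295, SLC7A11 is the filled point.

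Of the 17 tested amino acid transporters outside the 38 genes, 5 rose and 1 fell with CDDO-Me, 1 rose with PRL-295, and 2 had less mRNA with PRL-295 than with CDDO-Me. These are 35.3%, 5.88% and 11.8% of the 17, beside 9.22%, 0.684% and 1.59% of all tested genes. The 4 largest changes with CDDO-Me were those of SLC7A11, of SLC36A4, a carrier of proline and tryptophan (log2 1.07, adjusted p = 0.0257), of SLC7A8 and of SLC6A6, the taurine importer (0.88, adjusted p = 0.00133). SLC7A8 (-0.80, adjusted p = 0.02) and SLC6A6 (-0.56, adjusted p = 0.0356) were the 2 that differed between the compounds. The SLC36A4 call was lost without CDDO-Me library 2 or any DMSO library (adjusted p 0.0538 to 0.101), after the correction for GC content and length (log2 0.31, adjusted p = 0.596) and by limma on log2(FPKM + 1) (0.0552). Lost as well were the direct SLC7A8 call without any PRL-295 library or DMSO library 2 (0.0506 to 0.131), and the direct SLC6A6 call without any 1 of the 9 libraries (0.0501 to 0.223) or after the correction (-0.57, adjusted p = 0.0601).

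No enzyme of amino acid and one-carbon synthesis passed the test in any comparison. For CDDO-Me against DMSO, edgeR called 0 of the 9 tested enzymes, 2 had an unadjusted p under 0.05, and DESeq2 and limma on log2(FPKM + 1) each called 1, ALDH18A1. For PRL-295 against DMSO, edgeR, DESeq2 and limma called 0, and 0 had an unadjusted p under 0.05. For PRL-295 against CDDO-Me all 3 tools called 0, and 2 had an unadjusted p under 0.05. The enzymes' median log2 change was 0.0398 with PRL-295 and -0.176 with CDDO-Me.

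ALDH18A1, which makes the precursor of proline and ornithine from glutamate, had 223, 244 and 213 CPM in PRL-295 libraries, 160, 181 and 181 CPM in CDDO-Me libraries and 209, 235 and 217 CPM in DMSO libraries. CDDO-Me lay below both other groups, with a log2 change of -0.34 (adjusted p = 0.0635) against DMSO, and PRL-295 was 0.38 above CDDO-Me (adjusted p = 0.0986). PYCR1, which completes proline synthesis, had 51.1, 59.4 and 56.0 CPM in PRL-295 libraries, 69.5, 45.5 and 53.9 CPM in CDDO-Me libraries and 64.4, 73.6 and 60.8 CPM in DMSO libraries. Its PRL-295 libraries lay below DMSO with a log2 change of -0.26 (adjusted p = 0.566). Annotated genes on either strand share 29.7% of its exon bases, so its level is uncertain. PHGDH, the first enzyme of serine synthesis, had 163 to 197 CPM with PRL-295, 166 to 196 CPM with CDDO-Me and 199 to 225 CPM with DMSO, so both compounds lay below DMSO (log2 -0.24, adjusted p = 0.399, and -0.22, adjusted p = 0.234). The enzymes after it, PSAT1 and PSPH, had log2 changes of 0.25 and 0.14 with PRL-295 and 0.09 and -0.18 with CDDO-Me. SHMT2 and MTHFD2, which carry serine's carbon into mitochondrial folate, stood at 0.04 and 0.25 with PRL-295 and -0.17 and 0.23 with CDDO-Me, and PCK2, the mitochondrial phosphoenolpyruvate carboxykinase, at -0.14 and -0.31.

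ASNS, asparagine synthetase and a standard readout of ATF4, was barely counted: 0.287, 0.495 and 0.851 CPM in PRL-295 libraries, 0.594, 0.543 and 0.719 CPM in CDDO-Me libraries and 0.729, 0.123 and 0.531 CPM in DMSO libraries, or 134 reads over all 9. The groups overlapped, and the lowest library was DMSO library 2. In the annotation, 44.6% of the ASNS exon bases lie in another gene on the same strand (AC079781.5, with 18 reads), and whether shared reads were left uncounted was not tested, so its level is uncertain.

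Among other enzymes of one-carbon and amino acid metabolism, outside the 38 genes, 6 of 23 fell with CDDO-Me, and 3 were higher with PRL-295 than with CDDO-Me. Over all tested genes, 4.57% fell with CDDO-Me and 0.905% were higher with PRL-295 than with CDDO-Me. ASS1, which joins aspartate to citrulline (log2 change -0.88, adjusted p = 0.00243), BCAT2, a branched-chain aminotransferase (-0.72, adjusted p = 0.0273), and AHCY, which clears S-adenosylhomocysteine (-0.62, adjusted p = 0.00865), had the largest falls among those called. OAT (0.70, adjusted p = 0.0231), ASS1 (0.64, adjusted p = 0.0321) and AHCY (0.57, adjusted p = 0.0321) were the 3 that were higher with PRL-295. With PRL-295 against DMSO, edgeR and limma called 0 and DESeq2 called 1, 2 had an unadjusted p under 0.05, and the 2 most abundant, AHCY and GOT2, had log2 changes of -0.05 and 0.11. After the correction for GC content and gene length, the CDDO-Me calls of AHCY (-0.33, adjusted p = 0.262) and BCAT2 (-0.39, adjusted p = 0.22) were lost and that of ASS1 held, and the direct calls of OAT (0.67, adjusted p = 0.0613), ASS1 (0.42, adjusted p = 0.125) and AHCY (0.38, adjusted p = 0.222) were all lost; the BCAT2 call was also lost without PRL-295 library 3 or any DMSO library (adjusted p 0.05 to 0.103). In the direct comparison, the OAT call was also lost without PRL-295 library 1 or 3, CDDO-Me library 3 or DMSO library 2 (adjusted p 0.0567 to 0.108), the ASS1 call without any library except PRL-295 library 1 (0.0532 to 0.131) and the AHCY call without any library except CDDO-Me library 1 (0.0524 to 0.126).

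Of the 10 genes of tRNA charging and export, WARS fell and XPOT rose with CDDO-Me, or 20%, beside 9.22% of all tested genes. WARS charges tRNA with tryptophan. It had 233, 264 and 252 CPM in PRL-295 libraries, 198, 188 and 197 CPM in CDDO-Me libraries and 300, 334 and 296 CPM in DMSO libraries, and the 3 groups did not overlap. CDDO-Me cells had 1.60-fold less than DMSO cells (log2 -0.67 ± 0.0979 SE, adjusted p = 0.0025), and this call held in all 11 other settings and with each of the 9 libraries left out. The log2 change was -0.31 for PRL-295 against DMSO (adjusted p = 0.2) and 0.36 for PRL-295 against CDDO-Me (adjusted p = 0.0963).

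XPOT, the exportin that carries mature tRNA out of the nucleus, had 194, 189 and 169 CPM in PRL-295 libraries, 158, 225 and 171 CPM in CDDO-Me libraries and 96.8, 127 and 114 CPM in DMSO libraries. All 6 compound libraries lay above DMSO. The fold was 1.63 with PRL-295 (log2 0.71 ± 0.151 SE, adjusted p = 0.067) and 1.64 with CDDO-Me (log2 0.71 ± 0.151 SE, adjusted p = 0.0161), with a direct log2 difference of -0.00 (95% interval -0.33 to 0.33). Its GC content is 40.9%, and after the correction for GC content and length the CDDO-Me change was 0.23 (adjusted p = 0.599) and the PRL-295 change 0.54 (adjusted p = 0.373). The CDDO-Me call was lost without CDDO-Me library 2 (adjusted p = 0.0639), DMSO library 1 (0.0832) or DMSO library 3 (0.0569), while the PRL-295 change passed by DESeq2 (adjusted p = 0.00471) and without CDDO-Me library 1 (0.0173) or 2 (0.0176).

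With PRL-295, edgeR and limma called 0 of the 10 genes of tRNA charging and export and DESeq2 called 1. An unadjusted p under 0.05 was found for 5 of the 10, beside 2093 of all 16239 tested genes. Between PRL-295 and CDDO-Me all 3 tools called 0, and 1 had an unadjusted p under 0.05. Of the first 5, EPRS, which charges glutamate and proline, had 267, 192 and 228 CPM in PRL-295 libraries, 186, 265 and 217 CPM in CDDO-Me libraries and 151, 178 and 161 CPM in DMSO libraries. Both compounds lay above DMSO, with log2 changes of 0.49 with PRL-295 (adjusted p = 0.212) and 0.44 with CDDO-Me (adjusted p = 0.0968). The CDDO-Me change passed the test without CDDO-Me library 1 (adjusted p = 0.0264). The GC content of EPRS is 42.3%. After the correction for GC content and length the changes were 0.22 with PRL-295 (adjusted p = 0.743) and 0.09 with CDDO-Me (adjusted p = 0.77). TARS (threonine) stood at 0.45 and 0.22 and GARS (glycine) at 0.35 and 0.19 for PRL-295 and CDDO-Me against DMSO. AARS, SARS, MARS, NARS and CARS, the synthetases for alanine, serine, methionine, asparagine and cysteine, lay between -0.11 and 0.20 with PRL-295 and between -0.22 and 0.17 with CDDO-Me.

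The other 14 cytosolic synthetases and their scaffold proteins held 2 calls with CDDO-Me, or 14.3%, beside 9.22% of all tested genes. With PRL-295 and in the direct comparison 7.14% were called each, beside 0.684% and 1.59% of all tested genes. RARS, for arginine, rose (log2 0.84, adjusted p = 0.0138), and AIMP2, a scaffold of the multisynthetase complex, fell (-0.63, adjusted p = 0.0158). Of the exon bases of AIMP2, 28.9% are shared, mainly with EIF2AK1 on the opposite strand, which had 34166 reads against 15053. The strand setting of the counting is not given, so the level of AIMP2 is uncertain. RARS rose with PRL-295 as well (0.94, adjusted p = 0.0352), and AIMP2 was higher with PRL-295 than with CDDO-Me (0.62, adjusted p = 0.0431). The RARS call for PRL-295 was lost without any 1 of the PRL-295 or DMSO libraries (adjusted p 0.0985 to 0.223) and after the correction for GC content and length (0.68, adjusted p = 0.281), and for CDDO-Me without any 1 DMSO library (0.0501 to 0.0738) and after the correction (0.47, adjusted p = 0.302). The AIMP2 calls were lost after the correction (-0.30, adjusted p = 0.493, for CDDO-Me against DMSO and 0.27, adjusted p = 0.553, in the direct comparison), for CDDO-Me also without CDDO-Me library 2 or DMSO library 2 or 3 (adjusted p 0.0687 to 0.0769), and in the direct comparison without any library except CDDO-Me library 1 (0.07 to 0.176). Of 16 tested mitochondrial synthetases, AARS2 (-0.78, adjusted p = 0.032) and TARS2 (-0.60, adjusted p = 0.0128) fell with CDDO-Me. That is 12.5%, beside 9.22% of all tested genes. With PRL-295, edgeR and limma called 0, DESeq2 called 1, and 4 had an unadjusted p under 0.05. IARS2 and CARS2, the 2 most abundant, stood at 0.56 and -0.00 with PRL-295. Both mitochondrial calls were lost after the correction (AARS2 -0.47, adjusted p = 0.142, and TARS2 -0.34, adjusted p = 0.221) and without CDDO-Me library 2, DMSO library 2 or DMSO library 3, and AARS2 also without PRL-295 library 3 or DMSO library 1, with adjusted p up to 0.0675 for TARS2 and up to 0.128 for AARS2 when 1 library was left out.

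Upstream of ATF4, 16 genes of the eIF2 kinases, eIF2 and its exchange factor eIF2B were tested. EIF2S1, the subunit that stress kinases phosphorylate, was the 1 called by edgeR, with a log2 change of 1.03 with PRL-295 (adjusted p = 0.03) and 0.83 with CDDO-Me (adjusted p = 0.0173). This is 6.25% of the 16, beside 0.684% of all tested genes with PRL-295 and 9.22% with CDDO-Me. DESeq2 called 2 of the 16 with CDDO-Me and 1 with PRL-295, and limma on log2(FPKM + 1) called 1 with CDDO-Me and 0 with PRL-295. Both EIF2S1 calls were lost after the correction for GC content and length (0.87, adjusted p = 0.165, with PRL-295 and 0.26, adjusted p = 0.629, with CDDO-Me), the CDDO-Me call also without CDDO-Me library 2, DMSO library 1 or DMSO library 2, and the PRL-295 call without any library other than CDDO-Me libraries 1 and 2, with adjusted p up to 0.0884 and up to 0.201. The kinases EIF2AK1, EIF2AK2, EIF2AK3 and EIF2AK4 had log2 changes of 0.19, -0.21, 0.31 and 0.10 with PRL-295 and -0.07, 0.28, 0.61 and 0.09 with CDDO-Me, none of them called. In the direct comparison edgeR, DESeq2 and limma called 0 of the 16, and 2 had an unadjusted p under 0.05; EIF2S3 and GCN1, the 2 most abundant, stood at 0.00 and -0.09. Of 24 tested genes of other stress responses, 1 rose with CDDO-Me, or 4.17%, beside 9.22% of all tested genes called. It was MAP1LC3B, an autophagosome protein (0.73, adjusted p = 0.0245). This call was lost without PRL-295 library 3, CDDO-Me library 2 or 3, or DMSO library 1 or 2 (adjusted p 0.0551 to 0.114). For these stress genes edgeR and limma called 0 with PRL-295 and DESeq2 called 2, with 4 at an unadjusted p under 0.05. HSPA5, the main chaperone of the endoplasmic reticulum, had log2 changes of 0.22 with PRL-295 (adjusted p = 0.554) and 0.35 with CDDO-Me (adjusted p = 0.125), and SQSTM1, an autophagy receptor, 0.61 (adjusted p = 0.0621) and 0.19 (adjusted p = 0.374).

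The correction was fitted on GC content and gene length, so its shifts of the members' values follow GC content by construction. Genes called higher with CDDO-Me had a median GC content of 43.1% and genes called lower 57.7%. Over all genes, the split of 755 higher and 742 lower was 458 higher and 241 lower with the correction. Across the 37 members the correction moved the CDDO-Me change by -0.667 to 0.48 and the PRL-295 change by -0.286 to 0.2 on the log2 scale. STC2, SLC38A2 and WARS kept their calls, SLC7A5, SLC3A2, DDIT4 and XPOT lost them, and TRIB3 gained one.

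**Figure D5:**
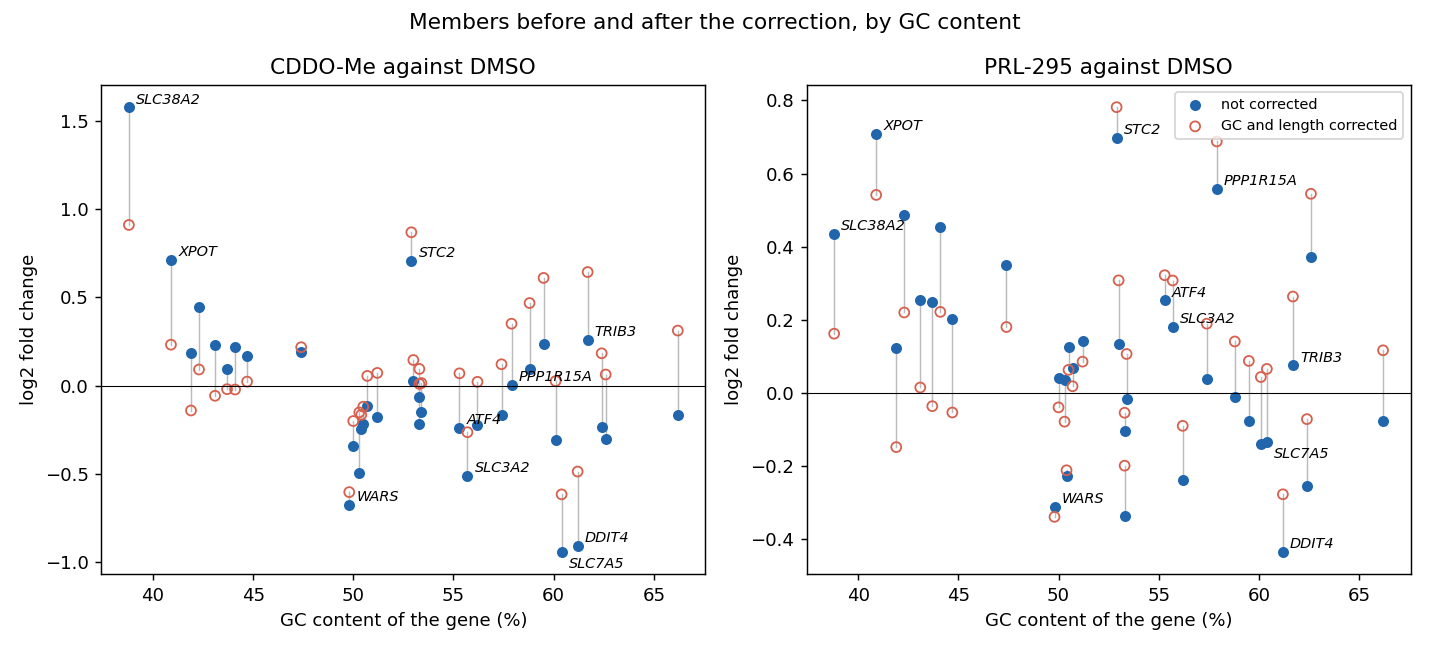
Log2 fold change (y axis) of the members against their GC content in percent (x axis), for CDDO-Me against DMSO and PRL-295 against DMSO, before (filled) and after (open) the correction for GC content and gene length; NUPR1 and ASNS are left out. With CDDO-Me the correction lowers members of low GC content such as SLC38A2 and XPOT and raises members of high GC content such as TRIB3 and SLC7A5. This follows by construction, as the correction is fitted on GC content and gene length.

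Correlations between members were mixed. Within each role group, pairwise correlations of log2 CPM over the 9 libraries had medians of 0.0975 for stress regulators, 0.124 for transporters, 0.144 for enzymes and 0.0842 for tRNA charging, and ranged between -0.932 and 0.955; these libraries share groups and depth, and the values are a description. The median SD of log2 CPM within a group was 0.118 for members against 0.175 for all tested genes in PRL-295 libraries, 0.192 against 0.301 in CDDO-Me libraries and 0.106 against 0.191 in DMSO libraries. The 2 sets were not matched on level. A filter at a mean of 1 CPM kept 35 members and 13127 genes, against 37 and 16239 here. The lower spread is thus not read as a trait of the members. Within PRL-295, library 2 was the highest for 25 of the 37 members, where it was for 37.9% of all tested genes, and library 1 the lowest for 25 (36.2% of all tested genes). Within DMSO, library 2 was the highest for 19 members (31.5% of all tested genes) and library 1 the lowest for 22 (35.2%).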

How the data were processed

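RNA of 9 HaCaT libraries (3 per group) was analysed. Per the labels' protocols, STAR 2.5 aligned the paired-end reads and HTSeq 0.6.1 assigned them to genes, on hg38 per the submitters' processing notes; the annotation release and strand setting are not given in the sources used here. The deposited gene counts are whole, unscaled read numbers, and the authors' FPKM are counts per gene length and library total. Counts were tested with edgeR 4.0.16 (R 4.3.3): filterByExpr by group, TMM scaling, 1 quasi-likelihood fit of all 9 libraries, 3 comparisons, Benjamini-Hochberg adjustment over 16239 genes and a threshold of 0.05. CPM are TMM-scaled, between-gene levels are FPKM, and intervals are 95% intervals from the fit. Replicate numbers come from the sample titles; same-numbered libraries of different groups did not deviate together, so they were not taken as pairs. Alternatives were DESeq2 1.42.0, limma 3.58.1 on log2 FPKM with a pseudocount, RLE or library-total scaling, other filters, fits of 6 libraries, a replicate block, a per-library spline correction for GC content and gene length (GENCODE 29 transcripts), and leaving out each library. The pipeline was tested on simulated data. The members and lists were chosen with earlier results of these data known. Values per library are given for members called in any comparison, those with the largest change in each role group, and ATF4, DDIT3, TRIB3, CHAC1 and ASNS. PPP1R15A and EPRS were given in full after their values were seen. From each other list, up to 4 called genes with the largest change are named, or the 2 with the highest CPM; 1 gene of these lists is not reported here. All NRF2 readouts are named. Exon overlaps come from GENCODE 29.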

Additional observations from a re-analysis of the deposited data

How the results depend on the processing

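Medians of all genes moved by less than 0.1 (log2) under every scaling, and no called change of a gene named in the report turned direction under any alternative tried. Members that were not called did: with the GC and length correction the members' median CDDO-Me change was 0.0633, against -0.113, and 25 of 37 were positive, against 17. With CDDO-Me against DMSO, 1497 genes were called, against 2511 by DESeq2, 2509 with no filter on low counts, 864 with the replicate block, 699 with the GC and length correction and 643 with that correction and the block together. With 1 library left out it was 401 to 2803 genes. Members called were 7, against 4 under the correction, with or without the block, and 5 to 8 with 1 library left out. The split of higher and lower genes was 560 and 891 by limma on log2(FPKM + 1), against 755 and 742. With PRL-295 against DMSO, 111 genes were called, against 535 by DESeq2, 825 with no filter, 650 in a fit of 6 libraries and 60 with the replicate block, and 33 to 589 with 1 library left out. Members called were 1, against 3 by DESeq2, 5 with no filter, 3 with 6 libraries, 2 with the GC and length correction and 0 to 3 with 1 library left out. Over all genes, the GC and length correction gave 118 calls. For PRL-295 against CDDO-Me, 258 genes were called, against 898 by DESeq2, 1250 with no filter, 45 with 6 libraries, 156 with the replicate block and 60 to 285 with 1 library left out; the split of 147 higher and 111 lower was 92 and 138 with the correction. Members called were 2, against 4 by DESeq2, 5 with no filter, 0 with 6 libraries, 1 with the correction and the replicate block, 1 by limma with either pseudocount and 0 to 3 with 1 library left out. The causes were not tested. Same-numbered libraries correlated at -0.281 to 0.143 in their deviations from the group means, so the replicate block is a check and not a paired design; without the correction it ended the call of no member. NUPR1 and ALDH1L2 had several libraries at or near the 3-count floor, and ASNS had 4 to 23 reads per library; what sets its low level was not tested.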
